A study of Malus domestica with 99 samples.

Results

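The genes described here are 43 transcripts of apple fruit that fell after harvest whether or not the fruit had been treated with 1-MCP. They were chosen from their own values, among 26306 XM_ entries (RefSeq transcript identifiers) measured in all 3 cultivars. An entry was kept when, in each cultivar, its harvest level was at least 5 on the log2 scale, its mean over days 7, 14 and 21 was at least 1 below harvest both with and without 1-MCP, and those 2 means differed by less than 0.6. On this scale a difference of 1 is a 2-fold change. The 43 entries were 0.163% of the XM_ entries, and 0.392% of the 10961 entries with a harvest level of at least 5 in every cultivar. A further 27502 XM_ entries had no Fuji values, and 76 of them passed in Golden Delicious and Granny Smith. On those 2 cultivars alone, 79 of the 26306 entries passed.

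RNA from the cortex (flesh) of 3 apple cultivars (Golden Delicious, Granny Smith, Fuji) was sequenced, in a series on the interplay of ethylene and auxin as picked apples ripen. The treated fruit were held overnight in a closed container with 1-methylcyclopropene (1-MCP) once harvested, and sampled at day 1, 7, 14 and 21 and at 2 months. Control fruit were sampled at the same times without 1-MCP, and untreated fruit at harvest served both. These 11 groups per cultivar had 3 libraries each in the labels, which call them biological replicates, and the values analysed are the authors' means per group. No spread between fruit can therefore be given with any level, and the storage temperature is not given in the sources used here.

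Apple is a climacteric fruit, in which ripening is accompanied by a burst of ethylene that drives softening, aroma and further ethylene production. 1-MCP binds the ethylene receptors and holds the fruit insensitive to the hormone, so ripening genes that depend on ethylene stay low in treated fruit. Detachment also cuts the fruit off from the water, sugars and hormones supplied by the tree, and transcripts can change after harvest without ethylene perception. As a check of the treatment, ACO1, which encodes an enzyme of the last step of ethylene synthesis, was lower with 1-MCP than without it over days 7 to 21, by a log2 difference of -6.27 for Golden Delicious, -7.80 for Granny Smith and -6.82 for Fuji. The gene table used for names gave a locus number for 26 of the 43 entries and no name or function for any of them, so the genes are called here by locus or entry, and no roles are assigned. Whether the samples held the labelled tissue was not checked, since no tissue marker could be named.

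At harvest the 43 entries had levels averaged over cultivars between 5.28 and 13.58, with a median of 8.19. Over days 7 to 21 their mean fall, over treatments and cultivars, ran between 1.21 and 2.78, with a median of 1.67. These values chose the entries and are a description. In bulk tissue, fewer cells of a type and less RNA per cell cannot be told apart. The levels are not scaled by transcript length, so they compare groups within a gene and not genes with one another. Where entries are ranked by harvest level, the order is that of the measured values and not of transcript abundance.

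The highest harvest level belonged to LOC103443415 (XM_008382252), and the greatest mean fall to LOC103443414 (XM_008382250), which lies directly beside it in the gene order of the RefSeq assembly GDT2T_hap1. LOC103443414 stood at 12.97 at harvest in Golden Delicious. It then measured 12.05, 10.20, 9.76, 9.79 and 10.26 at day 1, 7, 14, 21 and 2 months in 1-MCP fruit, and 12.10, 9.90, 9.50, 9.27 and 11.95 in control fruit. The treatments differed most at 2 months, when control fruit were higher. In Granny Smith it stood at 11.80 at harvest, then at 11.07, 9.03, 8.82, 8.55 and 9.89 in 1-MCP fruit, and at 11.12, 9.03, 8.28, 8.36 and 10.25 in control fruit. In Fuji it stood at 11.29 at harvest, then at 10.48, 9.19, 9.16, 9.23 and 9.71 in 1-MCP fruit, and at 10.38, 9.43, 9.50, 9.33 and 10.21 in control fruit. The largest step down lay between day 1 and day 7 in all 3 cultivars and both treatments, and no later value reached the harvest level.

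LOC103443415 followed a shallower course. In Golden Delicious it stood at 13.58 at harvest, then at 12.87, 12.11, 12, 11.82 and 12.25 in 1-MCP fruit, and at 12.93, 11.99, 11.60, 11.52 and 13.27 in control fruit. In Granny Smith it stood at 13.97 at harvest, then at 13.21, 11.94, 11.88, 11.85 and 12.66 in 1-MCP fruit, and at 13.66, 11.92, 11.65, 11.70 and 12.72 in control fruit. In Fuji it stood at 13.20 at harvest, then at 12.54, 11.80, 11.42, 11.76 and 12.33 in 1-MCP fruit, and at 12.48, 11.72, 11.87, 11.89 and 12.27 in control fruit. Across the 33 groups the 2 neighbours had a Pearson correlation of 0.87, given as a description of entries chosen for a common pattern. The other entries among the 5 with the highest harvest levels were XM_008349581 at 12.31 averaged over cultivars, LOC103439874 at 11.81 and LOC103440651 (XM_008379346) at 11.41. Among the genes directly adjacent to matched entries, 17 had values in all 3 cultivars, and these 2 were the ones that also belonged to the 43. LOC103421733, adjacent to LOC103443091 and singled out after its values were seen, fell by more than 1 in every cultivar with and without 1-MCP and missed the selection on its difference of 0.64 between 1-MCP and control means in Granny Smith.

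**Figure D1:**
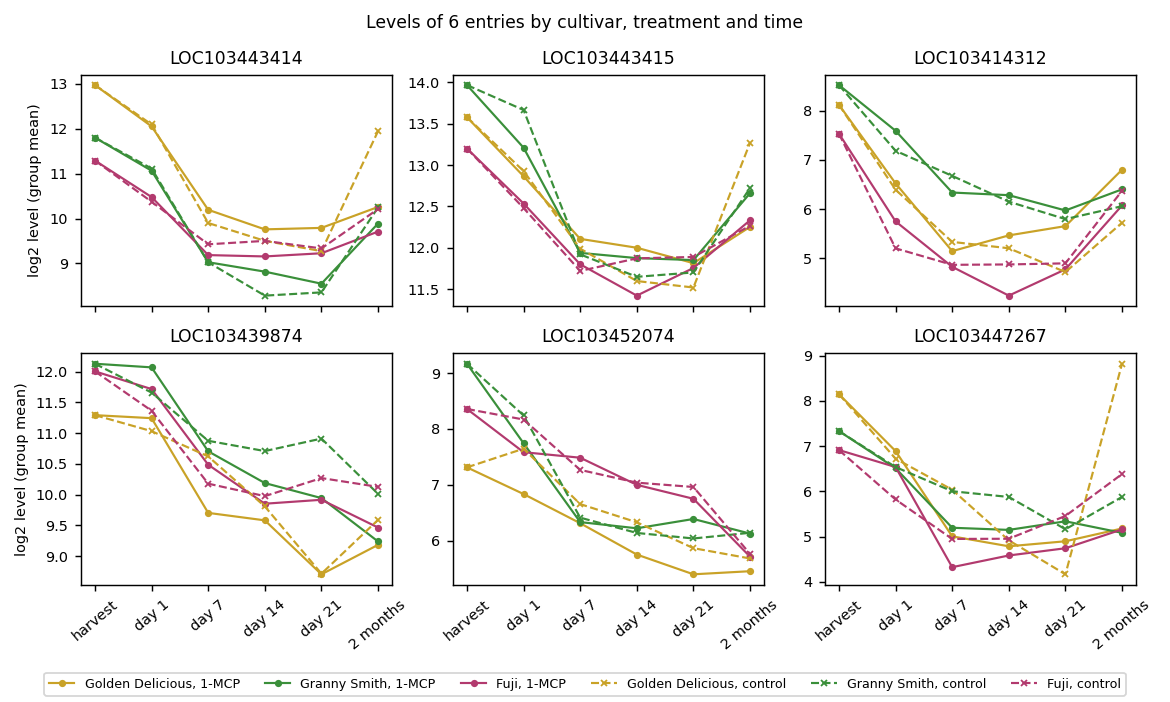
Log2 level (group mean) of 6 entries against time, with 1-MCP fruit as solid lines and control fruit as dashed lines, coloured by cultivar. LOC103443414, LOC103443415 and LOC103414312 turn upward at 2 months, whereas LOC103452074 stays at or near its lowest values, and LOC103447267 stands at 8.82 in Golden Delicious control fruit at 2 months.

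The 5 entries whose smallest fall was greatest were LOC103414312 (XM_008352711), LOC103434847 (XM_008373210), LOC103443414, LOC103405184 (XM_008344151) and LOC103442424 (XM_008381211). The least of the 6 falls of LOC103414312 was 2.31, and that of LOC103434847 was 2.27. LOC103414312 stood at 8.12, 8.52 and 7.53 at harvest in Golden Delicious, Granny Smith and Fuji. At day 21 it stood at 5.66, 5.97 and 4.78 in the 1-MCP fruit of these cultivars, and at 4.72, 5.80 and 4.90 in their control fruit. The treated and control ranges overlapped at day 21, and neither reached the harvest range. LOC103442424 differed most between cultivars, with Golden Delicious at 6.94, Granny Smith at 9.04 and Fuji at 10.13 at harvest. At day 21 the order was otherwise, with 4.27, 6.38 and 5.56 in 1-MCP fruit and 4.43, 6.67 and 5.35 in control fruit. For 32 of the 43 entries the 3 harvest levels lay within 1 of each other, beside 82.7% of the 10961 entries. The highest was in Granny Smith for 28, beside 36.8%, and the lowest in Fuji for 25, beside 31.5%. The 3 harvest samples are 1 group each, so these cultivar orders have no replicate check.

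The edges of the selection were close. The smallest fall was 1.00 in XM_008349581, 1.03 in XM_008372096 and 1.03 in LOC103452074 just inside the limit of 1, and 0.98 in XM_008355662, 0.97 in LOC103436813 and 0.97 in LOC103419128 just outside it. The largest difference between 1-MCP and control means was 0.59 in XM_008395505, 0.59 in XM_008349581 and 0.57 in LOC103447267 just inside the limit of 0.6. Just outside it stood LOC103440611 at 0.61, XM_008359681 at 0.62 and LOC103418811 at 0.63. XM_008359681 had levels of 6.22, 7.08 and 6.71 at harvest in Golden Delicious, Granny Smith and Fuji and between -1, the floor of the scale, and 0.86 over days 7 to 21, and its smallest fall was 6.15. So the rule left out a gene with a far deeper fall than any entry it kept.

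Leaving each cultivar out in turn describes how often entries that passed in 2 cultivars also fell in the third. All of these values are ones that the rule used. Of 76 entries with a harvest level of at least 5 that passed in Granny Smith and Fuji, 62 (81.6%) also fell by at least 1 in both treatments in Golden Delicious, beside 5.07% of all entries with that harvest level there. For Granny Smith the count was 59 of 104 (56.7%), beside 4.8%, and for Fuji it was 61 of 75 (81.3%), beside 4.9%. The whole rule was met by 43 of these entries in each case, a count that the selection itself fixes, since passing in the remaining cultivar makes an entry 1 of the 43. Taken alone, the whole rule was met by 2.55% of entries for Golden Delicious, 2.02% for Granny Smith and 2.39% for Fuji. The 62, 59 and 61 entries each include the 43, so their shares are a description and give no separate support for the choice. The 3 counts share groups with one another and were not tested.

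The fall was under way at day 1, a time that did not enter the rule. The median change against harvest was -0.81 in Golden Delicious 1-MCP fruit and -0.85 in its control fruit, -0.55 and -0.57 in 1-MCP and control fruit of Granny Smith, and -0.91 and -0.92 in 1-MCP and control fruit of Fuji. The median of the 10961 entries with a harvest level of at least 5 stayed within 0.03 of harvest in these groups. At least 1 below harvest were 16 of the 43 in 1-MCP fruit and 14 in control fruit of Golden Delicious, beside 4.26% and 2.29% of the 10961 entries. In Granny Smith the counts were 5 in 1-MCP fruit and 6 in control fruit, beside 1.47% in each, and in Fuji they were 19 and 20, beside 3.24% and 2.28%. Harvest is common to these differences and to the rule, so a high harvest value in 1 group mean would show as a fall here too, and no test was made. Relative to the fall reached over days 7 to 21, the median entry had covered on the log2 scale 46.8% by day 1 in Golden Delicious 1-MCP fruit and 48.2% in its control fruit, 31.8% and 35.7% in those of Granny Smith, and 55.1% and 63.2% in those of Fuji.

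**Figure D2:**
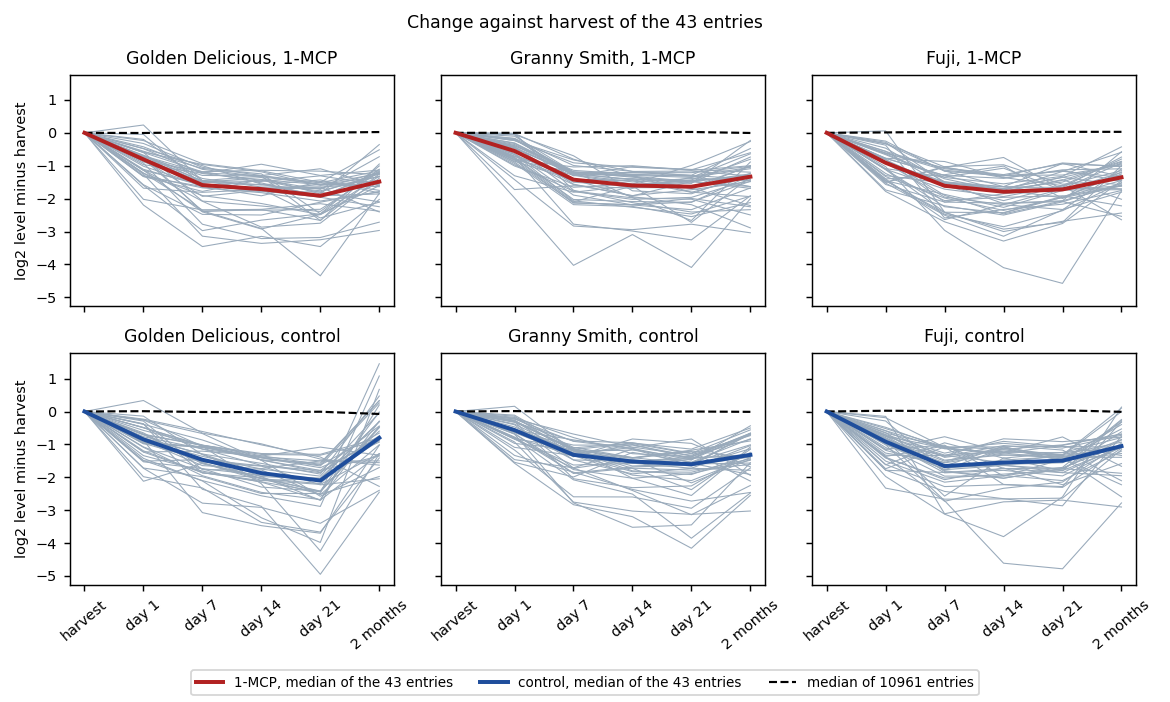
Log2 level minus harvest of each of the 43 entries (thin lines) and their median (thick line), by cultivar in columns, with 1-MCP fruit in the upper row and control fruit in the lower row. The dashed line is the median of the 10961 entries with a harvest level of at least 5. The thick line reaches -1.91 in 1-MCP fruit and -2.10 in control fruit of Golden Delicious at day 21 and lies nearer to harvest at 2 months in all 6 panels.

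Within days 7 to 21 the level fell at each step over days 7, 14 and 21 in 20 of the 43 entries with 1-MCP and in 39 without it in Golden Delicious, beside 24% and 29.2% of the 10961 entries. In Granny Smith it did so in 23 entries with 1-MCP and 19 without, beside 22.8% and 22.3%, and in Fuji in 5 and 6, beside 16.6% and 16.5%. The median change at day 21 was -1.91 in 1-MCP fruit and -2.10 in control fruit for Golden Delicious, -1.64 and -1.60 in 1-MCP and control fruit of Granny Smith, and -1.72 and -1.49 in 1-MCP and control fruit of Fuji. The Fuji control value at day 14 appears to be a mean over 2 libraries rather than 3, as does the Fuji 1-MCP value at 2 months. All of these days entered the rule and are given as description.

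**Figure D3:**
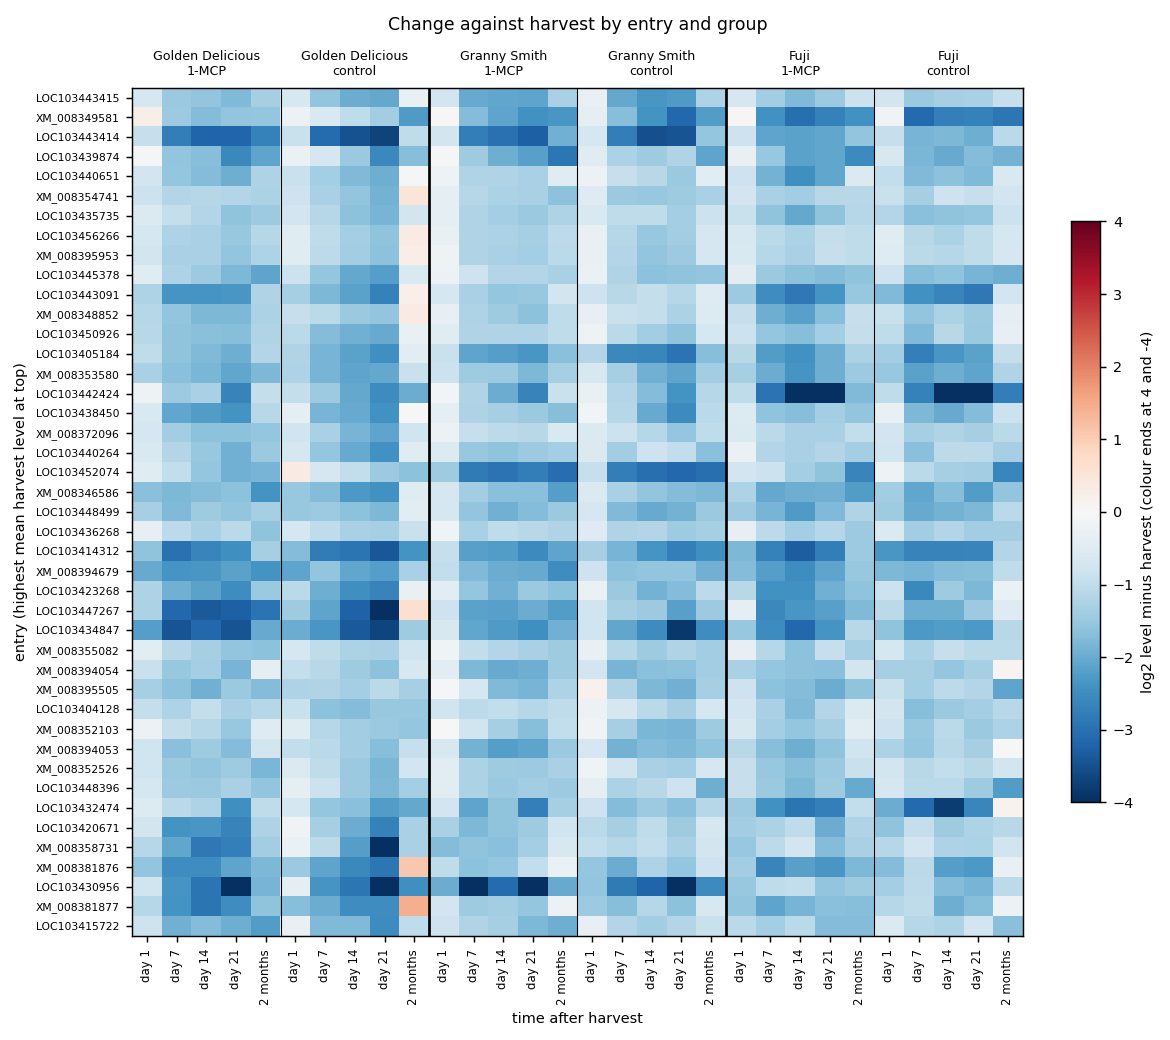
Log2 level minus harvest of the 43 entries (vertical axis, highest mean harvest level at the top) in the 30 groups after harvest (horizontal axis), by cultivar with 1-MCP fruit left of control fruit. Blue is below harvest and red above it, and the colour ends at 4 and -4. Red cells stand mainly in Golden Delicious control fruit at 2 months. In that group 35 of the 43 entries still lay below harvest, and 17 lay within 0.5 of harvest or above it.

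By 2 months the median change against harvest had become smaller than at day 21 in every cultivar and treatment. It was -1.48 in Golden Delicious 1-MCP fruit and -0.80 in its control fruit, -1.33 and -1.32 in 1-MCP and control fruit of Granny Smith, and -1.35 and -1.05 in 1-MCP and control fruit of Fuji. At least 1 below harvest were 39 of the 43 with 1-MCP and 17 without it for Golden Delicious, beside 9.94% and 9.22% of the 10961 entries. The counts were 34 with 1-MCP and 29 without it for Granny Smith, beside 8.12% and 11.2%, and 32 and 23 for Fuji, beside 8.77% and 10.3%. All 43 entries were below harvest in every cultivar with 1-MCP, and 33 were without it, beside 31.4% and 31.1% of the 10961 entries, harvest being a value that the rule used. The level at 2 months lay above the mean of days 7 to 21 in all 3 cultivars for 24 entries with 1-MCP, beside 31.8% of the 10961 entries, and for 28 without it, beside 24.7%. It lay below that mean in all 3 for 8 entries with 1-MCP, beside 30.5%, and for 2 without it, beside 26.7%. Those 2 were LOC103439874 and LOC103452074. Since the entries were chosen for low values over days 7 to 21, a higher later value is what the choice itself favours, and no test was made.

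The return toward harvest was uneven between cultivars. Within 0.5 of harvest or above it at 2 months stood 1 entry in 1-MCP fruit and 17 in control fruit of Golden Delicious, beside 78% and 78.2% of the 10961 entries. In Granny Smith 3 entries did so with 1-MCP and 1 without it, beside 79.4% and 75.8%, and in Fuji 1 and 8 did, beside 79.7% and 76.7%. XM_008381877, whose close accession XM_008381876 ran alongside it, was the highest above harvest in Golden Delicious control fruit at 2 months. It stood at 5.41 at harvest in Golden Delicious, then at 4.27, 3.01, 2.49, 2.93 and 3.80 in 1-MCP fruit, and at 3.69, 3.43, 2.92, 2.92 and 6.86 in control fruit. LOC103447267 (XM_008386444) stood at 8.82 in control fruit against 5.18 in 1-MCP fruit of Golden Delicious at 2 months, its harvest level there being 8.15. Both were singled out after their values were seen.

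Comparisons between day 1 and 2 months, and between 1-MCP and control at either time, rest on groups that the rule did not use. For each of them the difference within each cultivar was tested with limma across the 3 cultivars, over 20999 entries, with Benjamini-Hochberg adjustment and a threshold of 0.05. With the cultivar as the unit, the p-values set a mean effect beside how much it varied over 3 cultivars and say nothing of variation between fruit. All 43 entries passed the filter on low values, which the rule ensured through the harvest level. The 20999 entries also include ones with lower harvest levels than the rule allowed. The fall that chose the 43 was only partly reached at day 1. The choice itself therefore favours lower levels at 2 months than at day 1, and the storage tests are not independent of it. The calls that follow depend on how limma smooths the variances. With its default, a trend on the mean difference itself, none of the 20999 entries was called in any of the 5 tests, and of the 43 an unadjusted limma p under 0.05 was found in 11 for 1-MCP against control at day 1 (16.7% of all entries), 7 for the same at 2 months (24.4%), 10 for 2 months against day 1 in control fruit (28.6%), 20 for that in 1-MCP fruit (32.2%), and 5 for the change of the 1-MCP difference (13.6%). The calls below use a trend on the mean level of each entry, adopted after those counts of 0 were seen.

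The largest set of calls was in treated fruit over storage, in the direction that the choice of entries favours. In 1-MCP fruit 18 of the 43 entries were lower at 2 months than at day 1 and none was higher, beside 8.81% of all entries called lower, 7.8% called higher and 16.6% called in either direction. At an unadjusted limma p under 0.05, 24 were lower and 0 higher, beside 35.1% of all entries in either direction. One fit over the 12 columns of both times called 13 of the 43, all lower, beside 19.4% of all entries. The median difference of the 43 was -0.54, beside 0.04 for all entries, and 26 entries were lower in all 3 cultivars, beside 26.6% of all entries. Without Golden Delicious 0 of the 43 were called and 0 of all entries, without Fuji 2, beside 1.09% of all entries, and without Granny Smith 10, beside 9.05%. LOC103439874 (XM_008378504) stood at 9.18, 9.24 and 9.47 in 1-MCP fruit at 2 months in Golden Delicious, Granny Smith and Fuji, against 11.24, 12.07 and 11.72 at day 1. The 2 times did not overlap, and the mean difference was -2.38 ± 0.23 (SE, n = 3 cultivars; limma adjusted p = 0.00491). XM_008349581 stood at 10.81, 10.21 and 9.56 at 2 months in 1-MCP fruit of these cultivars, against 12.61, 12.54 and 12.06 at day 1, a mean difference of -2.21 ± 0.21 (limma adjusted p = 0.00498).

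The day 1 levels of XM_008349581 with 1-MCP were close to or above its harvest levels of 12.37, 12.55 and 12. LOC103452074 (XM_008391556) stood at 5.45, 6.13 and 5.71 at 2 months in 1-MCP fruit of Golden Delicious, Granny Smith and Fuji, against 6.83, 7.74 and 7.58 at day 1, a mean difference of -1.62 ± 0.14 (limma adjusted p = 0.00719). LOC103447267 stood at 5.18, 5.08 and 5.16 at 2 months, against 6.89, 6.51 and 6.54 at day 1, a difference of -1.51 ± 0.10 (limma adjusted p = 0.00917). LOC103445378 (XM_008384378) stood at 7.72, 8.70 and 8.11 at 2 months, against 9.33, 9.78 and 9.26 at day 1, a difference of -1.28 ± 0.17 (limma adjusted p = 0.00965). For each of these 3 the difference was negative in 3 of 3 cultivars. The adjusted p over the fits that left out 1 cultivar ran between 0.00993 and 0.0702 for LOC103439874, between 0.0153 and 0.0673 for XM_008349581, and up to 0.115 for LOC103447267, the highest p falling above the threshold for all 5. In the fit over 12 columns LOC103447267 was not called (limma adjusted p = 0.0667).

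In control fruit 5 of the 43 entries were lower at 2 months than at day 1 and none was higher, beside 6.07% of all entries called lower, 3.99% called higher and 10.1% called in either direction. An unadjusted limma p under 0.05 was reached by 10 lower and 3 higher entries of the 43, beside 31.2% of all entries, and 1 fit over the 12 columns of both times called 9 lower and 2 higher, beside 30.3% of all entries. Neither share stands above its background. Without Golden Delicious 1 was called, beside 1.49% of all entries, and without Granny Smith or without Fuji 0 were, as no entry of the table was called there. These 5 were all among the 18 called in 1-MCP fruit. LOC103452074 stood at 5.68, 6.14 and 5.76 at 2 months in control fruit of Golden Delicious, Granny Smith and Fuji, against 7.65, 8.24 and 8.17 at day 1, a difference of -2.16 ± 0.13 (limma adjusted p = 0.0122). XM_008349581 stood at 10.10, 10.30 and 9.10 at 2 months, against 12.14, 12.15 and 11.85 at day 1, a difference of -2.22 ± 0.28 (limma adjusted p = 0.0162). LOC103439874 stood at 9.59, 10.01 and 10.13 at 2 months, against 11.03, 11.66 and 11.37 at day 1, a difference of -1.44 ± 0.12 (limma adjusted p = 0.0176). In each of the 3 genes the times did not overlap in either treatment.

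The remaining calls in control fruit were LOC103448396 (XM_008387655), with a difference of -1.37 ± 0.20 (SE, n = 3 cultivars; limma adjusted p = 0.03), and LOC103442424, with -1.21 ± 0.28 (limma adjusted p = 0.0402). The median difference of the 43 in control fruit was -0.14, beside -0.02 for all entries, and 13 were lower in all 3 cultivars, beside 28.7% of all entries. The medians by cultivar were 0.20 (Golden Delicious), -0.78 (Granny Smith) and 0.12 (Fuji), beside -0.05, 0 and 0 for all entries. Of the 43, 24 were higher at 2 months for Golden Delicious, 5 for Granny Smith and 23 for Fuji. The shares of all entries were 46.2%, 49% and 50% in that order. The cultivars were not tested against each other. In 1-MCP fruit the medians of the 43 were -0.49, -0.88 and -0.25 in the same order, beside 0.05, 0.005 and 0.04 for all entries.

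**Figure D4:**
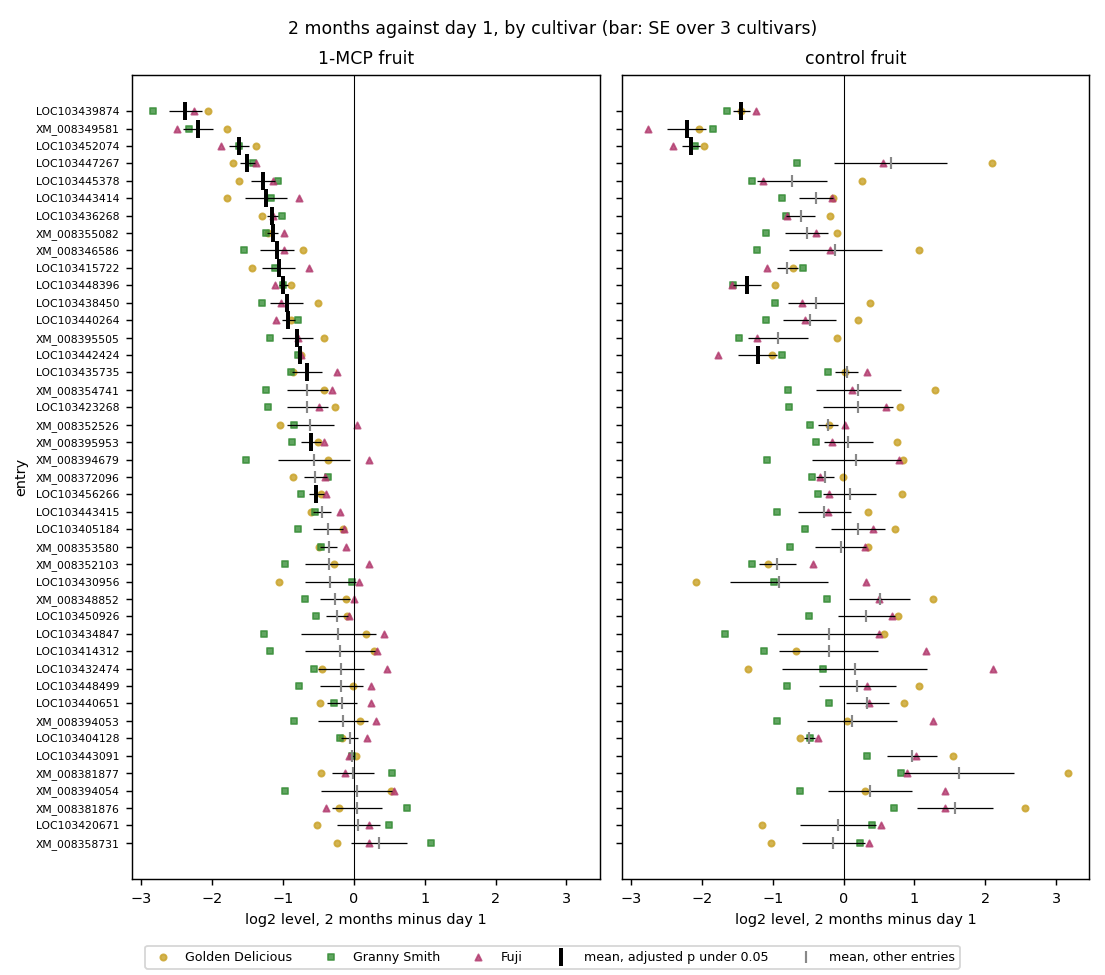
Log2 level at 2 months minus that at day 1 for each of the 43 entries (vertical axis) in 1-MCP fruit on the left and control fruit on the right. Coloured points are the 3 cultivars, the vertical tick is their mean, the bar is the SE (n = 3 cultivars), and thick ticks mark limma adjusted p under 0.05. Thick ticks stand at 18 entries on the left and 5 on the right, all below 0.

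Between treatments, the entries had been chosen for similar 1-MCP and control levels over days 7 to 21, and day 1 and 2 months were free to differ. At day 1, 4 of the 43 were higher with 1-MCP and 2 lower, beside 4.48% and 4.09% of all entries and 8.57% in either direction, and the median difference was 0.03. Without Golden Delicious 0 were called, without Fuji 1 and without Granny Smith 2, beside 2.34%, 3.24% and 4.4% of all entries. One fit over the 12 columns called 0 of the 43, of which 1 had an unadjusted limma p under 0.05, and 0.314% of all entries, so all 6 calls are lost there. Beside that background, counts this small are read as calls of single genes only. LOC103452074 was lower with 1-MCP, at 6.83, 7.74 and 7.58 in Golden Delicious, Granny Smith and Fuji, against 7.65, 8.24 and 8.17 in control fruit, a difference of -0.63 ± 0.09 (SE, n = 3 cultivars; limma adjusted p = 0.00835). XM_008358731 was lower as well, by -0.66 ± 0.16 (limma adjusted p = 0.0449). Higher were XM_008349581 at 0.36 ± 0.08 (adjusted p = 0.0192), LOC103436268 (XM_008374691) at 0.33 ± 0.03 (adjusted p = 0.0363), LOC103439874 at 0.32 ± 0.06 (adjusted p = 0.0196) and LOC103435735 (XM_008374142) at 0.24 ± 0.03 (adjusted p = 0.0381), by the same limma test.

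At 2 months 2 of the 43 were lower with 1-MCP and none was higher, beside 3.81% of all entries called lower, 4.37% called higher and 8.18% called in either direction. An unadjusted limma p under 0.05 was reached by 14 lower and 2 higher entries of the 43, beside 28.5% of all entries, and 1 fit over the 12 columns called 7 lower and 2 higher, beside 19.8% of all entries. Without Golden Delicious 1 was called, beside 7.49% of all entries, and without Granny Smith or without Fuji 0 were, beside 0.105% and 1.09%. LOC103423268 (XM_008361336) stood at 6.45, 6.46 and 5.78 in 1-MCP fruit of Golden Delicious, Granny Smith and Fuji, against 7.65, 7.06 and 7.13 in control fruit, a difference of -1.05 ± 0.23 (SE, n = 3 cultivars; limma adjusted p = 0.0416). LOC103438450 (XM_008376993) stood at 6.95, 7.16 and 7.42 in 1-MCP fruit, against 8.04, 7.77 and 8.14 in control fruit, a difference of -0.81 ± 0.15 (limma adjusted p = 0.0416). Treated and control values did not overlap in either gene. Neither was called in a fit with 1 cultivar left out, so the 1 call without Golden Delicious was another entry. In those fits the limma adjusted p ran between 0.0728 and 0.203 for LOC103423268 and between 0.0645 and 0.187 for LOC103438450. The median difference of the 43 was -0.34, beside 0.07 for all entries, and 19 were lower in all 3 cultivars, beside 23.4% of all entries. By cultivar the median was -0.89 (Golden Delicious), -0.04 (Granny Smith) and -0.30 (Fuji), beside 0.12, 0.02 and 0.04 for all entries.

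A test of whether the 1-MCP difference at 2 months departed from that at day 1, which is also the test of whether storage acted differently in the 2 treatments, called 1 of the 43, beside 2.3% of all entries, 1.12% higher and 1.18% lower. This was LOC103439874, whose 1-MCP minus control difference was -0.41, -0.77 and -0.66 at 2 months in Golden Delicious, Granny Smith and Fuji, against 0.21, 0.41 and 0.35 at day 1. The change was -0.94 ± 0.17 (SE, n = 3 cultivars; limma adjusted p = 0.0484), and the sign was reversed in 3 of 3 cultivars. Without Granny Smith or without Fuji it was not called, and the adjusted p over the fits with 1 cultivar left out ran between 0.0153 and 0.294. An unadjusted limma p under 0.05 was found in 20 of the 43, 18 lower and 2 higher, beside 21.9% of all entries in either direction. The median change of the 43 was -0.45, beside 0.07 for all entries. In all 3 cultivars 19 were negative and 5 positive, beside 19% and 27.3% of all entries. For the other 42 a difference between the treatments in their change over storage was not detected by limma with 3 cultivars. So the larger count of calls in 1-MCP fruit than in control fruit is not shown to be a difference between them, gene by gene.

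Several entries may not be independent. XM_008395951 and XM_008395953 had a Pearson correlation of 0.99 over the 33 groups and differed by at most 0.20, and XM_008394053 and XM_008394054 had one of 0.97. XM_008358724 and XM_008358731 had one of 0.94, and the entries XM_008381875, XM_008381876 and XM_008381877 had correlations between 0.70 and 0.89. Accession numbers this close may be transcripts of 1 gene or near copies that share reads, and the library kit kept no strand. Counting each such group once leaves 38 entries.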

How the data were processed

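RNA from fruit cortex was sequenced from non-directional libraries as 100-base reads, per the labels' protocols. Per the submitters' processing notes, STAR 2.5.1a was the aligner and HTSeq the counter; the genome build is not given in the sources used here. The authors deposited log2 group means, 11 columns per cultivar, in tables they name FPKM. That each is a mean of logs was inferred from values under 2.5: 31 columns give whole numbers (relative tolerance 0.0003) if 3 libraries were averaged, and 2 columns if 2 were, with 0 entered as 0.5. The column quantiles nearly match, though no header or label states how samples were scaled. Depth is unknown, so no counting interval is given.

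The 43 entries were found by applying the rule to the tables (pandas 2.3.3, numpy 2.4.6, matplotlib 3.10.9). The entries, lists and tests were chosen with earlier results of these data known. The 5 tests used day 1 and 2 months: in R 4.3.3, limma 3.58.1 fitted the differences per cultivar (lmFit; eBayes, robust and with a variance trend), two-sided, over entries reaching log2 2 in 3 or more columns. The first fit left the trend on the mean difference and made no calls. On simulated data it recovered fewer planted changes in each of the 5 tests than the fit used here. The simulation gave each entry the spread of another entry taken at random. It kept no relation between spread and level, so it cannot show which trend suits these data. The trend was then set on the mean level over all columns. That fit too missed more planted changes than it recovered in 4 of the 5. This choice came after the results were seen, and the written design names no covariate for the trend. Alternatives were the filter, a value of 4 added before the log, centring, 1 fit over 12 columns, and leaving out each cultivar.

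Named were the 5 entries with the highest harvest level, the 5 with the greatest smallest fall, the 3 nearest to each threshold on either side, and up to 5 calls per test and direction; other names are stated as chosen later. Identifiers were matched without version to a RefSeq table (GDT2T_hap1) for names and gene order. It carries no descriptions, so planned functional lists, tissue markers and promoter motifs were not used.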

Additional observations from a re-analysis of the deposited data

Results flagged for a closer look

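LOC103439874 is the 1 entry of the 43 whose 1-MCP difference at 2 months departed from that at day 1, by -0.94 on the log2 scale, in a test of the difference itself (limma across 3 cultivars, adjusted p = 0.0484). Its level was lower at 2 months than at day 1 in both treatments. Over 9 alternatives the adjusted p of this departure ran between 0.0153 and 0.342, the sign stayed negative, and the call held in 2 of them, namely with differences centred on the median of all entries and without Golden Delicious.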

How the results depend on the processing

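The calls among the 43 entries depend on the processing. With the variance trend on the mean difference, the limma default, 0 of the 43 and 0 of all entries were called in each of the 5 tests. Without the filter on low values 0 of the 43 were called in each as well, over 27230 entries tested. Of all entries that setting called 10 (0.0367%) for the change of the 1-MCP difference and 0 in the other tests. One fit over the 12 columns of day 1 and 2 months called 0 for 1-MCP against control at day 1 (6 in the report), 9 for the same at 2 months (2 in the report), 11 for 2 months against day 1 in control fruit (5 in the report), 13 for that in 1-MCP fruit (18 in the report) and 0 for the change of the 1-MCP difference (1 in the report). Over all 20999 entries that fit called 66, 4164, 6367, 4073 and 204, against 1799, 1718, 2112, 3487 and 483 in the report's fit, so in each test the members' count moved the way of all entries except in 1-MCP fruit over storage, where it fell. The test of the change of the 1-MCP difference also gave 0 with the stricter filter and 0 with 4 added before the log. These settings called 2.53% and 2% of all entries, so a count of 0 among the 43 is near those shares. Leaving out 1 cultivar gave 0 to 2 calls for 1-MCP against control at day 1 and 0 to 1 at 2 months. Of all entries these fits called 2.34% to 4.4% and 0.105% to 7.49%. For storage there were 0 to 1 calls in control fruit and 0 to 10 in 1-MCP fruit, beside 0% to 1.49% and 0% to 9.05%. The change of the 1-MCP difference had 0 to 1, beside 0.019% to 3.73%. The cause of these shifts was not tested. Counting close accessions once, an alternative added after the data were seen like the trend on the mean difference, moved no count by over 1.5 times.

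The number of entries under the rule was 77 with a smallest fall of 0.8 and 12 with 1.5, 21 with a largest treatment difference of 0.4 and 66 with 0.8. It was 84 when Golden Delicious was not used, 108 when Granny Smith was not used and 79 when Fuji was not used. Of 171 alternative values for 19 pairs of a named gene and a test, 77 kept the call, 94 lost it and 0 changed sign. Of the 19 pairs, 0 kept the call in every alternative. In the fits that left out 1 cultivar, 10 pairs were called in none of the fits and 0 in all 3.

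No paired analysis was possible because the columns are group means and carry no replicate numbers, so replicate fruit could not be paired, while each test does use differences within cultivars. Spread between fruit and sequencing depth are unknown, so a gene whose effect varies between cultivars is not called however clear it is within one, and a change in a single group mean cannot be set against its replicates.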
